A study of Mus musculus with 12 samples.

Results

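In hippocampal cultures given a gapmer against *Neuid*, most transcripts of the glycolytic pathway stayed close to their control level. Of 12 listed targets of hypoxia-inducible factor 1 (HIF1), 4 were lower (33.3%, beside 2.42% of all tested genes), as were hexokinase 2 and the lactate exporter *Slc16a3*. Aldolase C, lactate dehydrogenase B and brain glycogen phosphorylase were higher. Among 25 further tested HIF targets, 3 were higher and 2 lower (12.0% and 8.00%, beside 6.31% and 2.42% of all tested genes). The genes described are 38 symbols of glucose breakdown, lactate handling and the response to low oxygen, chosen by name: 2 glucose transporters, 15 glycolytic enzymes, 2 regulators of glycolysis, 5 lactate dehydrogenase subunits and monocarboxylate transporters, 2 glycogen enzymes and 12 HIF1 targets. They matched 39 of the 55471 gene columns of the count table, because the symbol *Aldoa* belongs to 2 neighbouring loci, and all 38 passed the filter on low counts.

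Glycolysis turns glucose into pyruvate, which either enters the mitochondria or is reduced to lactate by lactate dehydrogenase, and monocarboxylate transporters carry lactate across the plasma membrane. When oxygen is low, HIF1 accumulates and raises the transcription of glucose transporters, glycolytic enzymes and a further group of genes for mitophagy, pH control, collagen hydroxylation and vessel growth. In brain tissue, astrocytes hold most of the glycogen and are known for releasing lactate, whereas neurons take it up.

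Hippocampal cultures came from wild-type (WT) CD1 mouse embryos of mixed sex at embryonic day 17. At day 7 in vitro (DIV 7) they were given lipid nanoparticles with an antisense gapmer against the long noncoding RNA *Neuid* (*Neuid* KD) or with a negative control gapmer, and RNA was collected at DIV 10, with 6 libraries per group. Both groups were kept in Neurobasal medium with B27. Each arm rests on a single gapmer sequence, so the loss of *Neuid* and other effects of that sequence cannot be told apart. The labels do not say which libraries share a litter or a preparation, and p-values therefore measure the spread between these libraries, which may be technical. Control libraries held between 18002585 and 30914714 counted reads and *Neuid* KD libraries between 11152556 (replicate 1) and 30573480. Reads on 2014 chemosensory receptor genes, which are taken as background in these cultures, ranged from 26.7 to 667 CPM (reads divided by a library size that TMM scaling has adjusted) in control and from 27.1 to 617 CPM in *Neuid* KD libraries (two-sided exact permutation test on log2 CPM, p = 0.788).

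*Neuid* itself (Gm10419) was at 26.0 CPM in the lowest, 28.2 CPM in the median and 31.0 CPM in the highest control library, and at 6.32, 8.07 and 9.55 CPM in the corresponding *Neuid* KD libraries. All 6 *Neuid* KD libraries lay below all 6 control libraries, as their labels say, with a log2 fold change of -1.81 (SE 0.08, adjusted p = 1.32e-10). The locus overlaps Gm42517 on the opposite strand. Adjusted p-values here and below come from edgeR's quasi-likelihood test with Benjamini-Hochberg adjustment over the 19578 tested genes. Because bulk RNA was sequenced, fewer cells of a type and less RNA per cell cannot be told apart for any gene.

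Control replicates 1 and 6 stood apart from the other control libraries in many of the 38 genes. They were the 2 lowest control libraries for 17 of the 38 genes, among them 7 of the 12 HIF1 targets, against 4.62% of all tested genes, a count chosen after the values had been seen. Control replicate 3 was the highest control library for 25 of the 38. In the *Neuid* KD group, replicate 6 was the lowest library for 20 of the 38 genes and replicate 4 the highest for 23. With reads taken as a share of all reads, without TMM factors, control replicates 1 and 6 were the 2 lowest for 19 of the 38 genes (6 of the 12 HIF1 targets; 5.59% of all tested genes) and *Neuid* KD replicate 6 the lowest for 21, but control replicate 3 was the highest for 14 and *Neuid* KD replicate 4 for 11. Without control replicates 1 and 6 the calls of *Slc2a1* and *Mxi1* differed, and their values are given below.

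With an adjusted p under 0.05, 3 of the 38 genes rose and 6 fell in *Neuid* KD, beside 6.31% of all tested genes called higher and 2.42% called lower (8.72% in either direction). When an absolute log2 fold change above 0.5 was also required, 0 of the 38 genes were higher and 5 were lower, beside 2.44% and 0.792% of all tested genes (3.23% in either direction). The median log2 fold change was -0.15 over the 38 genes and -0.03 over all tested genes, and 31 of the 38 values were below 0 (81.6%, against 55.6% of all tested genes). *Slc16a3*, *Hk2*, *Ankrd37*, *P4ha2*, *Bnip3* and *Ndrg1* fell, and *Aldoc*, *Pygb* and *Ldhb* rose. The 3 genes that rose and *Bnip3*, *Ndrg1* and *P4ha2* kept the 12 libraries apart by group without any overlap, as did 4.13% (higher) and 1.57% (lower) of all tested genes. RLE normalization left the counts at 3 higher and 6 lower of the 38 genes (1073 higher and 560 lower over all tested genes), whereas other choices moved the lower count. With upper-quartile normalization 3 of the 38 genes were higher and 12 lower (3 of 15 calls higher, against 3 of 9 with TMM scaling), while over all tested genes 1049 were higher and 1259 lower (45.5% of calls higher, against 72.3% with TMM scaling, where 1235 were higher and 473 lower). DESeq2 called 3 of the 38 higher and 10 lower (23.1% of calls higher), and 1496 higher and 1004 lower over all genes (59.8%). With 1 RUVs factor in DESeq2 the counts were 4 and 16 of the 38 and 1687 and 1376 of all genes (55.1%).

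**Figure D1:**
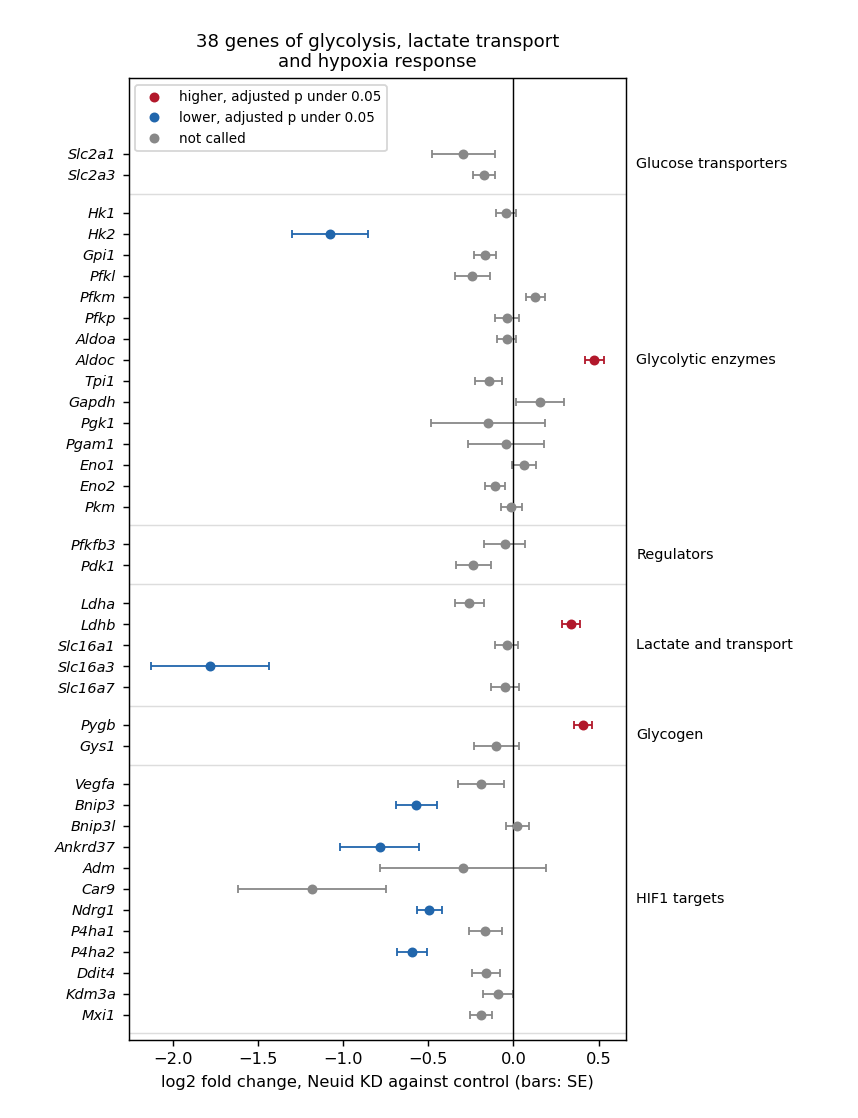
Log2 fold change of each of the 38 genes in *Neuid* KD against control, grouped by role, with the standard error as a horizontal bar (6 libraries per group, edgeR). Red points are the 3 genes called higher and blue points the 6 called lower at an adjusted p under 0.05; *Slc16a3* lies furthest from 0, at -1.78, and most glycolytic enzymes lie close to 0.

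Neither glucose transporter passed the test. *Slc2a3*, the high-affinity transporter of neurons, was the more abundant per length, at 22.6 CPM per kilobase of exon in control and 20.1 in *Neuid* KD, against 4.17 and 3.42 for *Slc2a1*, the transporter of glia and the vessel wall. *Slc2a3* differed by a log2 fold change of -0.17 (SE 0.06, adjusted p = 0.121), and it was called lower in 8 of 24 alternatives, with an adjusted p down to 1.99e-06. *Slc2a1* had a log2 fold change of -0.29 (SE 0.18, adjusted p = 0.466), with control replicates 6 and 1 as its lowest control libraries. Without these 2 libraries it was -0.55 (SE 0.12, adjusted p = 0.0147), and over all alternatives its adjusted p ran from 0.0147 to 0.839.

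Of the 15 glycolytic enzymes, 1 rose and 1 fell (6.67% each, beside 6.31% and 2.42% of all tested genes) and 13 were not called, and their median log2 fold change was -0.04. The lower count depended on the processing, with 4 enzymes lower under upper-quartile normalization (6.43% of all tested genes), 2 under DESeq2 (5.13%), 5 under DESeq2 with 1 RUVs factor (7.03%, with 2 enzymes and 8.62% of all genes higher) and 4 with background reads as a covariate (5.04%). All shares given for DESeq2 divide by the 19578 tested genes. Only 14643 of them had an adjusted p with DESeq2 and 16541 with 1 RUVs factor, and over those genes alone the shares would be higher. The gene that fell, *Hk2* (ENSMUSG00000000628, chr6:82725025-82774454, minus strand), encodes the inducible hexokinase that docks on mitochondria and makes glucose 6-phosphate. *Hk2* was at 8.41 CPM in the lowest, 19.4 CPM in the median and 26.0 CPM in the highest control library, and at 5.66, 8.74 and 11.2 CPM in *Neuid* KD libraries. Control replicate 6 lay within the *Neuid* KD range and the other 5 control libraries above it, with replicate 1 the next lowest, so that the groups overlapped. The log2 fold change was -1.08 (SE 0.23, adjusted p = 0.00442), and *Hk2* was called in all alternatives. *Hk1*, the constitutive hexokinase of brain, stood at 42.5 and 41.3 CPM per kilobase and had a log2 fold change of -0.04 (SE 0.06, adjusted p = 0.814). As a share of the *Hk1* and *Hk2* signal per length, *Hk2* made up between 3.24% and 8.81% in control libraries and between 2.11% and 4.56% in *Neuid* KD libraries.

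The enzyme that rose, *Aldoc* (ENSMUSG00000017390, chr11:78322968-78327781, plus strand), splits fructose 1,6-bisphosphate and in the forebrain is typical of astrocytes. Its lowest, median and highest values were 114, 123 and 129 CPM in control and 154, 168 and 189 CPM in *Neuid* KD. All *Neuid* KD libraries were above all control libraries, with replicate 1 the highest of them, and the log2 fold change was 0.47 (SE 0.06, adjusted p = 1.14e-05). *Aldoa*, the other aldolase of brain, ranged from 297 to 355 CPM in control (median 316) and from 280 to 336 CPM in *Neuid* KD (median 313). Its groups overlapped over most of their range, and the log2 fold change was -0.04 (SE 0.05, adjusted p = 0.811). Per length, *Aldoc* contributed 25.4% ± 0.784 of the aldolase A and C signal in control and 32.7% ± 2.14 in *Neuid* KD libraries (SD, n = 6 each), and these shares did not overlap. The second *Aldoa* column, a neighbouring locus, held about 1 CPM in both groups and was not called.

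*Eno2* encodes the enolase typical of neurons and *Eno1* the ubiquitous one. *Eno2* ranged from 186 to 227 CPM in control (median 211) and from 172 to 208 CPM in *Neuid* KD (median 202), with overlapping groups, and had a log2 fold change of -0.11 (SE 0.06, adjusted p = 0.377). *Eno1* ranged from 35.0 to 46.7 CPM in control (median 41.5) and from 37.2 to 48.2 CPM in *Neuid* KD (median 44.1). Its groups overlapped as well, with a log2 fold change of 0.06 (SE 0.07, adjusted p = 0.776). In the *Eno1* transcript with the longest coding sequence, 72.2% of the 50-nt windows occur unchanged in other annotated genes, mostly pseudogenes. Its reads may therefore be undercounted, and its level cannot be set beside that of *Eno2*. The counted share of *Eno2* did not overlap between the groups (84.8% to 85.8% in control, 83.2% to 84.1% in *Neuid* KD), a difference that is uncertain for the same reason.

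Among the phosphofructokinases, which carry out the committed step of the pathway, *Pfkm* was the most abundant per kilobase of annotated exon and *Pfkl* the least. Without division by length *Pfkp* was above *Pfkm* (means of 322 and 160 CPM in control). *Pfkp* has 13401 bases of annotated exon but 4145 in its transcript with the longest coding sequence, against 3340 and 2879 for *Pfkm*. Ranks and shares per length, here and for the other paralogs, thus depend on the length used. The shares of the groups did not overlap for *Pfkl* (14.3% to 16.2% in control, 10.1% to 13.9% in *Neuid* KD) or *Pfkm* (54.46% to 58.38% and 58.44% to 63.15%). Log2 fold changes were -0.24 for *Pfkl* (adjusted p = 0.199), 0.13 for *Pfkm* (adjusted p = 0.223) and -0.04 for *Pfkp* (adjusted p = 0.862). The isomerases *Gpi1* and *Tpi1* had log2 fold changes of -0.17 (adjusted p = 0.151) and -0.14 (adjusted p = 0.369). Among 24 alternatives *Gpi1* was called lower in 6, *Pfkl* in 5 and *Tpi1* in 3. Pyruvate kinase, *Pkm*, closes the pathway and had the smallest difference of the 15 enzymes, with a log2 fold change of -0.01 (SE 0.06, adjusted p = 0.956).

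*Gapdh*, *Pgk1* and *Pgam1*, which act between the triose phosphates and enolase, are normally among the most abundant transcripts of a cell but were counted at medians of 4.16, 1.18 and 2.27 CPM in control libraries. Their transcripts with the longest coding sequence share 90.4%, 68.0% and 41.5% of all 50-nt windows with other annotated genes. Of the 222 genes that share a window with *Gapdh*, 213 are pseudogenes. Reads that match several genes may thus be missing from these columns, and the levels cannot be read as expression. None of the 3 was called, with log2 fold changes of 0.16, -0.15 and -0.04. Part of that transcript's sequence is shared with other genes also for *Pkm* (30.5% of windows), *Gpi1* (19.6%), *Aldoa* (13.5%) and *Tpi1* (7.51%), whose values are uncertain to that extent. Exons of *Hk1*, *Gpi1*, *Pfkm*, *Pfkp*, *Aldoa*, *Tpi1* and *Gapdh* also overlap another gene on the opposite strand, and those of *Pfkm* and *Pkm* one on the same strand. Outside the enzymes, *Slc2a1*, *Slc16a7*, *Gys1*, *Car9* and *Mxi1* overlap a gene on the opposite strand.

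The regulators of glycolysis were not called. *Pfkfb3*, which makes the phosphofructokinase activator fructose 2,6-bisphosphate, had a log2 fold change of -0.05 (SE 0.12, adjusted p = 0.888). *Pdk1*, which shuts the entry of pyruvate into mitochondria and is a textbook HIF1 target, had one of -0.24 (SE 0.10, adjusted p = 0.223) and was called lower in 4 of 24 alternatives, with an adjusted p down to 0.00212. For both genes the 2 lowest control libraries were replicates 1 and 6.

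Lactate dehydrogenase is a tetramer of A and B subunits, of which A favours the making of lactate and B its use. *Ldhb* (ENSMUSG00000030246, chr6:142490249-142507957, minus strand) was at 49.0, 51.5 and 57.0 CPM in the lowest, median and highest control library and at 59.8, 64.8 and 72.8 CPM in *Neuid* KD. All *Neuid* KD libraries exceeded all control libraries, and the log2 fold change was 0.34 (SE 0.05, adjusted p = 0.000418). *Ldha* was at 221, 237 and 257 CPM in control and at 147, 204 and 233 CPM in *Neuid* KD. In 5 of 6 *Neuid* KD libraries *Ldha* lay below the lowest control library, replicate 4 lay within the control range and replicate 6 was the lowest. *Ldha* did not pass the test, at a log2 fold change of -0.26 (SE 0.08, adjusted p = 0.073), but was called lower in 9 of 24 alternatives, among them DESeq2 and the fit without *Neuid* KD replicate 6 (adjusted p = 0.0315). Over all alternatives its adjusted p ran from 8.44e-05 to 0.496 and its log2 fold change from -0.32 to -0.22. Per length, *Ldhb* made up 31.6% ± 1.58 of the signal of both subunits in control and 41.3% ± 2.74 in *Neuid* KD (SD, n = 6 each), and the ranges of the groups, 30.6% to 34.6% and 39.0% to 46.2%, did not overlap. Shared sequence makes both values uncertain, with 27.0% of the windows of *Ldhb* found in 1 pseudogene and 16.6% of those of *Ldha* in 14 pseudogenes.

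*Slc16a3* (ENSMUSG00000025161, chr11:120948480-120960868, plus strand), the low-affinity monocarboxylate transporter that exports lactate from glycolytic cells, had the most negative log2 fold change of the 38 genes. It was at 2.03 CPM in the lowest, 4.35 CPM in the median and 5.34 CPM in the highest control library, and at 0.471, 0.973 and 2.37 CPM in *Neuid* KD libraries. Control replicate 6 was the lowest control library, and 5 of 6 *Neuid* KD libraries lay below it, so that only *Neuid* KD replicate 2 overlapped with the control range. Its log2 fold change was -1.78 (SE 0.34, adjusted p = 0.00226). *Slc16a1*, the transporter of glia and endothelium, and *Slc16a7*, the high-affinity transporter of neurons, were not called (-0.04, adjusted p = 0.845, and -0.05, adjusted p = 0.841). Among the 3 transporters, *Slc16a3* was a minor component, with between 1.55% and 3.74% of their signal per length in control and between 0.385% and 1.82% in *Neuid* KD.

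Brain glycogen phosphorylase, *Pygb* (ENSMUSG00000033059, chr2:150786735-150831758, plus strand), releases glucose 1-phosphate from glycogen. Its lowest, median and highest values were 150, 169 and 177 CPM in control and 202, 222 and 232 CPM in *Neuid* KD. The groups did not overlap, and the log2 fold change was 0.41 (SE 0.05, adjusted p = 4.18e-05). *Gys1*, the glycogen synthase of brain and muscle, had a log2 fold change of -0.10 (SE 0.13, adjusted p = 0.805).

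Of the 12 HIF1 targets, 0 rose and 4 fell (33.3%, beside 2.42% of all tested genes lower and 6.31% higher), and 11 had a log2 fold change below 0 (91.7%, beside 55.6%). The 4 include *Ankrd37*, which lost its call in 12 of 24 alternatives. *Bnip3* (ENSMUSG00000078566, chr7:138890836-138909519, minus strand) encodes a mitophagy receptor of the outer mitochondrial membrane. It was at 21.3 CPM in the lowest, 23.0 CPM in the median and 24.3 CPM in the highest control library, and at 9.31, 15.9 and 19.3 CPM in *Neuid* KD libraries. All *Neuid* KD libraries were below all control libraries, and replicate 6 was the lowest, for a log2 fold change of -0.57 (SE 0.12, adjusted p = 0.00398). Its transcript with the longest coding sequence shares 48.9% of its windows with 5 other genes, 4 of them pseudogenes, and its value is uncertain to that extent. *Bnip3l*, a related mitophagy receptor, had a log2 fold change of 0.02 (SE 0.07, adjusted p = 0.913) and shares 25.1% of its windows with 1 pseudogene.

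*P4ha2* (ENSMUSG00000018906, chr11:54100095-54131665, plus strand), a catalytic subunit of the collagen prolyl 4-hydroxylase, was at 10.5, 13.7 and 15.5 CPM in the lowest, median and highest control library and at 8.16, 8.91 and 9.77 CPM in *Neuid* KD. No library of either group crossed into the range of the other, and the difference on the log2 scale was -0.60 (SE 0.09, adjusted p = 0.000161). *P4ha1*, the other such subunit on the list, had a log2 fold change of -0.16 (SE 0.10, adjusted p = 0.438).

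*Ndrg1* (ENSMUSG00000005125, chr15:66929318-66969640, minus strand), a stress-responsive gene that in brain is known from oligodendrocytes, ranged from 46.5 to 58.0 CPM in control (median 52.0) and from 30.1 to 41.6 CPM in *Neuid* KD (median 37.6). All *Neuid* KD libraries were below all control libraries, with replicate 6 the lowest. The log2 fold change was -0.49 (SE 0.07, adjusted p = 0.000198), just short of the threshold of 0.5. *Ankrd37* (ENSMUSG00000050914, chr8:45996902-46005707, minus strand), an ankyrin-repeat gene best known as a HIF1 target, was at 2.03, 3.45 and 4.20 CPM in the lowest, median and highest control library and at 1.22, 1.90 and 2.59 CPM in *Neuid* KD. Here the groups overlapped, because control replicates 6 and 1 lay within the *Neuid* KD range. The log2 fold change was -0.79 (SE 0.23, adjusted p = 0.0456). *Ankrd37* kept its call in 12 of 24 alternatives, among them 3 of the 12 fits that left out 1 library, those without control replicate 1, control replicate 6 or *Neuid* KD replicate 4, and over all alternatives the adjusted p ran from 0.000981 to 0.483. *Ndrg1* and *Bnip3* overlap predicted genes on the opposite strand that were each under 2 CPM in every library. *Ankrd37* overlaps *Lrp2bp* and *Ufsp2* on the opposite strand. *Lrp2bp* was at most at 1.085 CPM and *Ufsp2* at 42.3 CPM in the median control library (9.75 CPM per kilobase, against 2.10 for *Ankrd37*), and neither was called (log2 fold changes -0.06 and -0.04). The strand setting of the counting is not given in the sources used here, so the share of *Ankrd37* reads that belong to these genes is unknown.

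The other 6 HIF1 targets were not called. *Vegfa*, the vascular growth factor, had a log2 fold change of -0.19 (SE 0.14, adjusted p = 0.56) and was the most abundant of the 12 per length, at 21.6 CPM per kilobase in control. *Mxi1*, a repressor of Myc targets, had one of -0.19 (SE 0.06, adjusted p = 0.0748), and 4 of 6 *Neuid* KD libraries lay below the lowest control library. *Mxi1* was called lower in 10 of 24 alternatives, among them DESeq2 and the fit without control replicates 1 and 6 (-0.27, adjusted p = 0.0284), with an adjusted p between 0.00166 and 0.753 over all of them. *Ddit4*, an inhibitor of mTORC1, and *Kdm3a*, a histone H3K9 demethylase, had log2 fold changes of -0.16 (adjusted p = 0.328) and -0.09 (adjusted p = 0.711). *Car9*, the carbonic anhydrase of the cell surface, and *Adm*, adrenomedullin, were near the limit of detection, with control medians of 1.28 and 0.981 CPM, and had log2 fold changes of -1.18 (SE 0.43, adjusted p = 0.118) and -0.30 (SE 0.49, adjusted p = 0.844). *Car9* was called lower in 2 of the 22 alternatives that gave it a value.

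**Figure D2:**
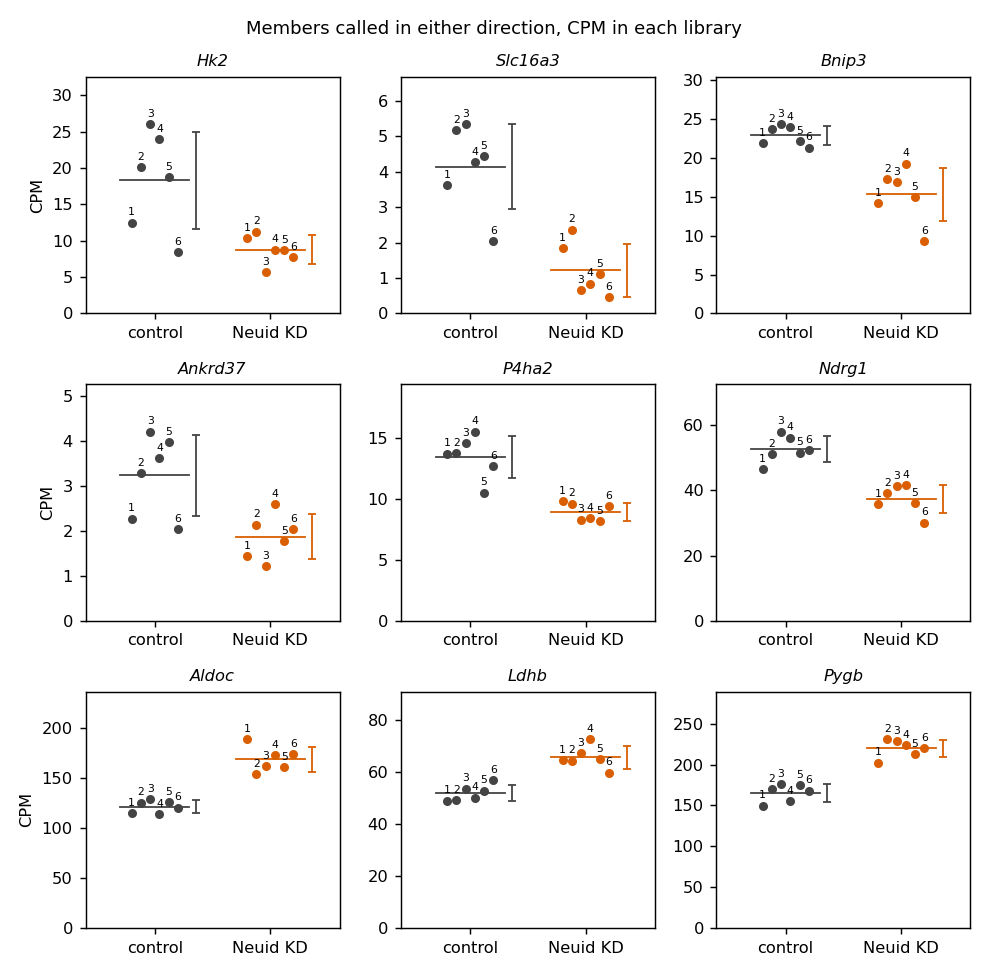
CPM in each library for the 9 genes called in either direction, with replicate numbers beside the points, the mean as a horizontal line and the SD as a bar (n = 6 per group). Control replicates 1 and 6 are low for *Hk2* and *Ankrd37*, while *Bnip3*, *P4ha2*, *Ndrg1*, *Aldoc*, *Ldhb* and *Pygb* do not overlap between groups.

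Set side by side, the 15 glycolytic enzymes and the 12 HIF1 targets differed in how many genes were called lower, 1 of 15 (6.67%) against 4 of 12 (33.3%), beside 2.42% of all tested genes. Their median log2 fold changes were -0.04 and -0.24. The 4 targets include *Ankrd37*, which lost its call in 12 of 24 alternatives and kept it in only 3 of the 12 fits that left out 1 library. The enzymes not called include *Gapdh*, *Pgk1*, *Pgam1* and *Eno1*, whose counts are uncertain because of shared sequence. A test of the difference between these lists was not made. Enzymes and targets called lower numbered 4 of 15 and 5 of 12 with upper-quartile normalization (6.43% of all tested genes), 2 and 5 with DESeq2 (5.13%), 5 and 7 with 1 RUVs factor (7.03%), 4 and 7 with background reads as a covariate (5.04%) and 1 and 4 with RLE normalization (2.86%). Summed over the 15 enzymes, counted reads were between 2030 and 2484 CPM in control libraries (median 2285) and between 2021 and 2426 CPM in *Neuid* KD (median 2288). Reads of *Gapdh*, *Pgk1*, *Pgam1* and *Eno1* that match several genes may be missing from this sum. The sum over the 12 HIF1 targets was between 367 and 510 CPM in control (median 448) and between 322 and 422 CPM in *Neuid* KD (median 372). Both sums overlapped between the groups, and in both the lowest control library was replicate 1 and the lowest *Neuid* KD library replicate 6. Without control replicates 1 and 6, an alternative chosen after the data had been seen, 5 of the 12 HIF1 targets and 1 of the 15 enzymes were called lower, beside 1.63% of all genes tested in that fit. In the 5 libraries with under 100 CPM of background reads, 9 of 12 and 5 of 15 were called lower, beside 4.52% of all tested genes. That fit sets only control replicates 3 and 5 against 3 *Neuid* KD libraries, and control replicate 3 is the highest control library for most of the 38 genes with TMM scaling. In the 7 libraries with at least 100 CPM the counts were 3 of 12 and 1 of 15, beside 0.867%.

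**Figure D3:**
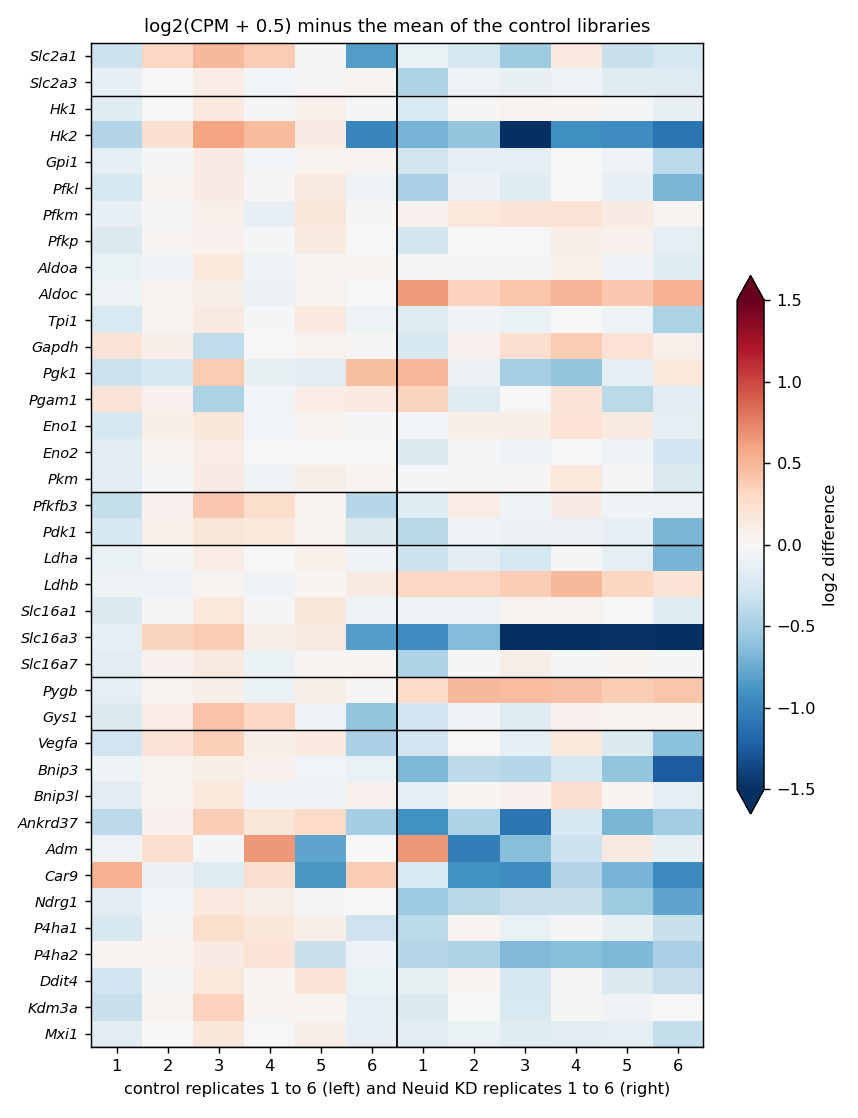
Log2(CPM + 0.5) of each of the 38 genes in each of the 12 libraries, minus the mean of the 6 control libraries; red is higher and blue lower than that mean. Control replicates 1 and 6 are the 2 lowest control libraries for 17 of the 38 genes, and *Neuid* KD replicate 6 is the lowest of its group for 20.

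HIF subunits and the oxygen sensors that mark them for breakdown lie upstream of these targets. *Hif1a*, the oxygen-regulated subunit of HIF1, had a log2 fold change of 0.17 (SE 0.05, adjusted p = 0.0511) and its partner *Arnt* one of -0.04 (SE 0.06, adjusted p = 0.81), while *Epas1*, which encodes the related subunit HIF2A, rose from 7.73 ± 1.14 to 39.5 ± 2.82 CPM (SD, n = 6 each; log2 fold change 2.35, adjusted p = 4.91e-12). In all, 2 of the 10 genes of this list were higher and 0 lower (6.31% and 2.42% of all tested genes), the other being *Vhl*, which marks HIF subunits for breakdown (log2 fold change 0.21, adjusted p = 0.0334). HIF subunits are controlled at the protein level, which was not measured.

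A further list of 27 HIF targets outside the 38 genes gave 3 higher and 2 lower calls among its 25 tested genes (12.0% and 8.00%, beside 6.31% and 2.42% of all tested genes), with a median log2 fold change of -0.03. *Anxa2*, *Ak4* and *Plod1* rose (log2 fold changes 0.63, 0.45 and 0.31), and *Stc2* and *Wsb1* fell (-0.43 and -0.30). *Plod1*, like *P4ha2*, hydroxylates collagen.

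Glycogen is built and broken down by further enzymes and their regulators. Of 16 other tested glycogen genes, 5 were higher (31.2%, beside 6.31% of all tested genes), 0 lower and 11 not called, 5 values were below 0, and the median log2 fold change was 0.15. *Ppp1r3c*, a glycogen-targeting subunit of protein phosphatase 1, rose from 13.2 ± 3.61 to 37.9 ± 3.27 CPM (SD, n = 6 each; log2 fold change 1.52, adjusted p = 5.97e-07). *Phka1* and *Phkb*, subunits of the kinase that activates glycogen phosphorylase, had log2 fold changes of 1.11 (adjusted p = 3.54e-07) and 0.54 (adjusted p = 5.7e-06). *Ugp2*, which makes the UDP-glucose for glycogen synthesis, had a value of 0.51 (adjusted p = 5.48e-05).

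Of 18 tested genes of other glycolytic isoforms and the glycerol phosphate shuttle, 1 was lower and 0 higher. In this and the next lists the shares of all tested genes to set beside the counts are 2.42% lower and 6.31% higher. That gene, *Gpd1*, passes electrons from cytosolic NADH to glycerol 3-phosphate and fell from 62.1 ± 2.73 to 22.3 ± 2.13 CPM (SD, n = 6 each; log2 fold change -1.49, adjusted p = 1.72e-11). Of 13 genes for the entry of pyruvate into mitochondria, the pyruvate dehydrogenase kinases *Pdk4* (log2 fold change 1.05, adjusted p = 0.0013) and *Pdk2* (0.26, adjusted p = 0.028) were higher and 0 were lower. Of 7 pentose phosphate genes, *G6pdx*, the first enzyme of that route, was higher (0.23, adjusted p = 0.00967) and 0 were lower. None of 15 tested genes for other monocarboxylate and glucose transport was called at an adjusted p under 0.05.

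Markers of cell types were counted in the same fit. Of 19 tested astrocyte markers, 18 rose and 0 fell, and their summed level was 2186 to 2763 CPM in control and 5336 to 5960 CPM in *Neuid* KD libraries. *Apoe*, the most abundant of them per length, rose from 245 ± 25.2 to 1189 ± 113 CPM (SD, n = 6 each; log2 fold change 2.28, adjusted p = 2.92e-12). These markers moved in the same libraries as *Aldoc*, *Pygb*, *Ppp1r3c* and the other glycogen genes that rose, which astrocytes also express. *Epas1* and *Ldhb* rose in these libraries as well, and *Slc16a3* moved in the opposite direction. The part of these markers in any of these results was not tested. Of 10 markers of oligodendrocyte precursors, 4 rose and 0 fell, with *Olig1* the most abundant per length (78.2 ± 8.49 and 216 ± 11.7 CPM; SD, n = 6 each), and their sum went from between 323 and 390 CPM to between 580 and 629 CPM.

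Neuronal markers were the most strongly expressed list, with sums between 7693 and 9060 CPM in control and between 7878 and 9253 CPM in *Neuid* KD, as the label of the cultures says. *Camk2a* and *Nefm* were the 2 of 14 that rose, 0 fell, and *Tubb3*, the most abundant per length, was not called (log2 fold change 0.08, adjusted p = 0.46). Markers of mature oligodendrocytes summed to at most 40.7 CPM, with *Cnp* the most abundant per length (14.1 ± 1.68 and 15.3 ± 1.68 CPM; SD, n = 6 each), 4 of 10 did not pass the filter on low counts, and *Mbp* fell (log2 fold change -0.66, adjusted p = 0.000973). *Ndrg1* fell in the same direction as *Mbp*; the part of these cells in that result was not tested. Microglial markers summed to at most 20.3 CPM, and *P2ry12*, *Tmem119*, *C1qa*, *C1qb*, *C1qc* and *Ctss* were each under 1 CPM in all 12 libraries. Endothelial markers summed to at most 27.2 CPM, led by *Kdr* (7.40 ± 1.63 and 7.36 ± 1.33 CPM; SD, n = 6 each), and mural and fibroblast markers to at most 75.1 CPM, led by *Dcn* (21.6 ± 1.24 and 20.9 ± 1.16 CPM; SD, n = 6 each). None of the tested genes of these last 3 lists, 4, 6 and 11 in number, was called at an adjusted p under 0.05 with edgeR.

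HIF binds DNA at a core of the letters ACGTG or GCGTG. Promoter windows of 300 bases (250 before and 50 after an annotated start, RefSeq, GRCm38.p6) were found for 34 of the 38 genes. Such a start can differ from the gene start printed above, and the windows of *Ankrd37*, *Slc16a3* and *P4ha2* lie inside the printed gene positions. Both strands were searched, and the palindrome CACGTG counts as a match on each strand. At least 1 match was present in a window of 30 of these 34 genes (88.2%), and of 84.6% of those that were not called. Over all 27025 genes with a window the share was 46.7%, and over the 12703 of them that were tested it was 63.8%. Genes with several windows have more chances of a match. By gene, 12 of 15 glycolytic enzymes and 10 of 10 HIF1 targets with a window held a match. By window, 72.0% of the 25 windows of glycolytic enzymes and 73.3% of the 15 windows of HIF1 targets held a match, beside 57.9% of the windows of tested genes. A match describes the letters in the window and does not show that HIF binds there. The windows of the genes that fell and have an entry are shown, since these genes were called lower, with the matched letters in capitals. They lie at chr6:82774405-82774704 (*Hk2*, minus strand), chr11:120948817-120949116 (*Slc16a3*, plus strand), chr7:138909457-138909756 (*Bnip3*, minus strand), chr8:45999801-46000100 (*Ankrd37*, minus strand) and chr11:54100674-54100973 (*P4ha2*, plus strand), each written along the strand of its gene.
Hk2: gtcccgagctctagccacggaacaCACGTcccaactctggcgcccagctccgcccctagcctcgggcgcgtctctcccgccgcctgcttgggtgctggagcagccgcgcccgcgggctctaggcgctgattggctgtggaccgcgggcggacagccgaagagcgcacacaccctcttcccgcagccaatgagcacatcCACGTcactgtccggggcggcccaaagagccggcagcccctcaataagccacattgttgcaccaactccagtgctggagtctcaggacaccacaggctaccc
Slc16a3: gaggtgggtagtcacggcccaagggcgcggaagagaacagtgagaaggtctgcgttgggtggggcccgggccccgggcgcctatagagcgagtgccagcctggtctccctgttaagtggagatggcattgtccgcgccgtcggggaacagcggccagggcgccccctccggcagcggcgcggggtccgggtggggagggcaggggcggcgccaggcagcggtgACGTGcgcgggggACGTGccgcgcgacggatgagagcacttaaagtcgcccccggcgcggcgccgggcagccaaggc
Bnip3: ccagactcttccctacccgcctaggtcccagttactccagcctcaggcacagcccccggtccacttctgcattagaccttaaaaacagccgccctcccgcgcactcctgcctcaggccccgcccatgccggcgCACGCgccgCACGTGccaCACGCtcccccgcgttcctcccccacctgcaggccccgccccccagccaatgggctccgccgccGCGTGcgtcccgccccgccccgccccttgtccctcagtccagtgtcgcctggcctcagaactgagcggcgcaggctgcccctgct
Ankrd37: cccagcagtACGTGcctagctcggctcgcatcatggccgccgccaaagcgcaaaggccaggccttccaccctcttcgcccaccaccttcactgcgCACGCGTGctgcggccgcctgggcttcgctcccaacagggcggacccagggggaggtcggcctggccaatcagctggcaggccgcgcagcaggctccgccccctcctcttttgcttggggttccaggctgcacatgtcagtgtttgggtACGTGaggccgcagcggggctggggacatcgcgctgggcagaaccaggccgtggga
P4ha2: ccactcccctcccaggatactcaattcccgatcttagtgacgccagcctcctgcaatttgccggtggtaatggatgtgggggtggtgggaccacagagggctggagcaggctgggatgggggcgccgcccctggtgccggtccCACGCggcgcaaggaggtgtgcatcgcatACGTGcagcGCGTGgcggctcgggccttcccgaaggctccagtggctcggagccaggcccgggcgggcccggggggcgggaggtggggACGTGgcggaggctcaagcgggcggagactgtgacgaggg
These windows held 5 matches (*Bnip3*), 4 (*Ankrd37* and *P4ha2*) and 2 (*Hk2* and *Slc16a3*). Windows of genes that were not called held as many or more, with 7 matches for *Ldha*, 5 for *Hk1* and *Slc16a1* and 4 for *Pfkp* and *Pfkfb3*. The windows of the 3 genes that rose held matches too. *Ndrg1* had no entry.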

How the data were processed

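Stranded total RNA libraries were sequenced. The authors aligned reads to mm10 with STAR, counted them with featureCounts and deposited the read count of each gene in each of the 12 libraries. Annotation release, strand setting and treatment of reads that match several genes are not given in the sources used here. Symbols, positions and exon lengths are from GENCODE M21 (GRCm38). For shared sequence, the transcript of each gene with the longest coding sequence was used. Each of its 50-nt windows was looked up in the transcripts of all genes that do not overlap its locus. Counts were filtered with filterByExpr, scaled with TMM and compared unpaired with edgeR 4.0.16 (quasi-likelihood test, R 4.3.3), and genes were called at an adjusted p under 0.05. The code was tested on simulated data. Alternatives were RLE and upper-quartile scaling, DESeq2 1.42.0 with and without 1 RUVs factor, 2 other filters, mitochondrial genes left out, background reads as covariate or split at 100 CPM, a replicate block, other fold thresholds and each library left out.

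The members and all gene lists were chosen with earlier results of these data known. All 38 members are named, with values in libraries for those past both thresholds, for the aldolase, lactate dehydrogenase and enolase pairs and also for *Ndrg1* and *Pygb*, besides Gm10419, *Hif1a*, *Epas1*, *Arnt*, up to 5 called genes of each other list and the most abundant gene of each marker list. Of the genes this rule names, 2 are not reported here.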

Additional observations from a re-analysis of the deposited data

Results flagged for a closer look

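In 2 of the 80 groups of 6 libraries examined for the 38 genes and *Neuid*, 1 library lay far from the others of its group, where chance alone gives about 1 in 20. For *Slc16a7*, the monocarboxylate transporter of neurons, *Neuid* KD replicate 1 was at 89.5 CPM, while the other *Neuid* KD libraries were between 122 and 133 CPM, and its gap to the nearest of them was 0.748 of the range of the group. This library is the shallowest of the 12, at 11152556 reads. For *Mxi1*, *Neuid* KD replicate 6 was at 28.8 CPM and the others were between 32.5 and 34.7 CPM, with a gap of 0.629 of the range. Neither gene was called.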

How the results depend on the processing

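Of the 9 genes called among the 38, 7 kept their call in all alternatives, and *Ankrd37* and *Ldhb* did not. *Ldhb* lost it only in the libraries with at least 100 CPM of background reads (0.31, adjusted p = 0.0691). *Ankrd37* lost it in 12 of 24 alternatives, and no called gene changed sign. Of the genes that were not called and are not given such a count above, *Slc2a1*, *Eno2*, *P4ha1* and *Ddit4* were called lower in 2 alternatives each, *Hk1*, *Slc16a1*, *Vegfa* and *Kdm3a* lower in 1 and *Pfkm* higher in 1. In DESeq2 3 values of the 38 genes had no adjusted p. Leaving out control replicates 1 and 6 together was chosen after the data had been seen. All limits of bulk RNA, a single gapmer sequence in each arm and unknown preparations apply to each value.

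Over all genes the number called lower was 1259 with upper-quartile scaling, 1004 with DESeq2, 1376 with 1 RUVs factor, 781 with a mean of at least 1 CPM, 987 with background reads as a covariate and 799 in the libraries under 100 CPM of background reads. Without a filter on low counts 711 genes were higher and 229 lower, in the libraries with at least 100 CPM of background reads 651 and 205, and without control replicates 1 and 6 778 were higher. With each library left out in turn, between 822 and 1208 genes were higher and between 355 and 780 lower. Above a log2 fold change of 0.5, 254 genes were lower with DESeq2, 330 with 1 RUVs factor, 300 with the covariate and between 123 and 269 with a library left out.

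Of the 38 genes, those called lower numbered 12 with upper-quartile scaling (beside 6.43% of all tested genes), 10 with DESeq2 (5.13%) and 16 with 1 RUVs factor (7.03%). They numbered 10 with a mean of at least 1 CPM (5.11%), 15 with the covariate (5.04%) and 20 under 100 CPM of background reads (4.52%). The same shares stand beside the lower counts of enzymes and HIF1 targets in this paragraph. Above a log2 fold change of 0.5, 1 was higher in the libraries with at least 100 CPM of background reads. In that fit 2.75% of all tested genes were higher without this threshold, and the share above it is not given here. Between 3 and 6 of the 38 were lower above 0.5 with a library left out, beside the counts of all genes given in the paragraph before. Glycolytic enzymes called lower numbered 4 with upper-quartile scaling, 2 with DESeq2, 5 with 1 RUVs factor (and 2 higher), 2 with a mean of at least 1 CPM, 4 with the covariate and 5 under 100 CPM of background reads. HIF1 targets called lower numbered 7 with 1 RUVs factor, 7 with the covariate and 9 under 100 CPM of background reads.

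The sign of the log2 fold change turned for genes that were not called. In the libraries with at least 100 CPM of background reads it was -0.0289 for *Gapdh*, 0.272 for *Pgk1*, 0.0108 for *Slc16a1*, 0.0152 for *Gys1*, -0.0408 for *Bnip3l*, 0.0176 for *Adm* and 0.00959 for *Kdm3a*. Under 100 CPM it was 0.202 for *Pgam1* and -0.004039 for *Eno1*, and without control replicates 1 and 6 it was 0.0486 for *Pgam1*, -0.0201 for *Eno1* and -0.01861 for *Bnip3l*. *Bnip3l* was also at -0.03658 with upper-quartile scaling and -0.0149 with 1 RUVs factor. With a library left out, values ran from -0.276 to 0.0624 for the second *Aldoa* column, -0.175 to 0.00744 for *Pgam1*, -0.0537 to 0.0180 for *Pkm*, -0.143 to 0.0418 for *Pfkfb3*, -0.213 to 0.00308 for *Gys1* and -0.0343 to 0.0634 for *Bnip3l*.

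With the replicate number as a block, 1299 genes were higher and 542 lower, 10 of the 38 were lower and 2 glycolytic enzymes were lower. Only 2 of 6 control libraries correlated best with the *Neuid* KD library of the same number (correlations of equal numbers from -0.637 to 0.774). The main fit was unpaired. Correlations were highest for replicates 1 and 3, whose libraries also had like background reads (667 and 617 CPM, 26.7 and 27.1 CPM). The check thus cannot show whether equal numbers share a preparation.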

Other observations

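Some libraries were the lowest or highest of their group for many of the 38 genes. Among control libraries, replicate 1 was the lowest for 22 of the 38 genes, against 24.2% of all tested genes, and replicate 3 the highest for 25 (65.8%), against 16.3%. Among *Neuid* KD libraries, replicate 6 was the lowest for 20 genes (52.6%), against 14.2% of all tested genes, and replicate 4 the highest for 23 (60.5%), against 14.7%. Without TMM factors, control replicate 1 was the lowest for 16 genes (12.4% of all tested genes), control replicate 3 the highest for 14 (7.99%), *Neuid* KD replicate 6 the lowest for 21 (14.5%) and *Neuid* KD replicate 4 the highest for 11 (6.55%). *Neuid* KD replicate 6 was also the lowest *Neuid* KD library for *Bnip3*, *Ndrg1*, *Ldha* and *Slc16a3*. Mitochondrially encoded genes held 17.4% of its reads, the lowest share of the 12 libraries, and the shares of the groups did not differ by the two-sided exact permutation test (18.6% ± 0.498 in control and 18.6% ± 0.888 in *Neuid* KD, SD, n = 6 each, p = 0.944).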
